A study of Mus musculus with 10 samples.

Results

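The genes described here encode collagens, laminins, integrin chains, matrix metalloproteinases (MMPs) and fibronectin. Members were taken by symbol: collagen, laminin and MMP genes named by chain or number (Col, Lam and Mmp), all Itga and Itgb genes, those with a letter such as Itgav included but not the Itgb1bp genes, and Fn1. This gave 108 of the 24812 rows with values, made up of 44 collagens, 11 laminins, 29 genes with an integrin symbol, 23 MMPs and Fn1. Averaged over the 10 libraries, 43 of them reached a signal of 1 or more, and these 43 were tested: 15 collagens, 6 laminins, 14 integrin symbols, 7 MMPs and Fn1. The symbol rule also takes in Itgb3bp, which encodes a centromere protein and not an integrin chain, and it is counted below among the integrin symbols. Just inside the limit lay Lamb3 at 1.35, Itga7 at 1.39 and Col27a1 at 1.42, and just outside it lay Col12a1 at 0.869, Col15a1 at 0.834 and Itga1 at 0.763.

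RNA was sequenced from mouse pancreatic ductal adenocarcinoma (PDAC) tumor cells that were sorted on surface PD-L1, the ligand through which tumor cells can restrain T cells. Interferon gamma (IFNγ), a cytokine of T cells and natural killer cells that induces PD-L1, was the stimulus, and cells were collected after 20 hours. The groups were IFNγ-treated cells with high PD-L1 (PD-L1 high, 3 libraries), IFNγ-treated cells of all PD-L1 levels (treated all, 3 libraries) and cells without IFNγ of all PD-L1 levels (untreated all, 4 libraries). The strain label reads C57BL/6 in the treated all and untreated all libraries and C57BL/7, C57BL/8 and C57BL/9 in PD-L1 high libraries 1, 2 and 3, so strain label and sort cannot be told apart. The labels name no cell line, clone or genotype. They also leave unsaid whether libraries of a group are separate cultures, and p-values therefore cover only the spread between these libraries, which may be technical. Treated all cells can include cells with high PD-L1.

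Collagens are trimeric rods that form fibrils, sheets or beaded filaments between cells, and laminins are cross-shaped trimers that self-assemble into basement membranes. Integrins are surface receptors made of an alpha and a beta chain that bind these proteins and fibronectin and link them to the actin cytoskeleton, while MMPs are zinc proteases that cut matrix proteins and release factors stored in them. Pancreatic ductal adenocarcinoma is known for a dense collagen-rich stroma, most of it made by fibroblasts, to which the tumor cells add basement membrane proteins, fibronectin and proteases of their own.

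Each gene's deposited value is a normalized signal. No source used here states its unit, and read depth is unknown. Library totals were 698396 to 715500, which the normalization sets. The smallest signal above 0 fell with transcript length, with a median of 0.09 for the short genes and 0.02 for the long genes when the 3328 rows with values rounded to a fixed step are split into 3 equal parts by length. In these rows the values behaved as a per-length scale. No tested member was among them, since the members' values are not rounded to that step. Levels are set side by side between genes on that footing, which was not checked in the other rows and so not for the tested members. Values below are this signal, means are given ± SD over 3 PD-L1 high, 3 treated all and 4 untreated all libraries, and differences are log2 fold changes of signal + 1 with their standard error. A gene is said to have risen or fallen where limma, fitted over all 11487 genes with a mean of at least 1, gave a Benjamini-Hochberg adjusted p under 0.05.

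Untreated libraries 3 and 4 are not independent of 1 and 2. Over the 43 members the mean of 3 and 4 differed from that of 1 and 2 by only 0.0023 (median absolute log2 difference), against 0.043 and 0.065 for the other ways of pairing these 4 libraries. Tests that use them take the spread as smaller than it may be, so the counts of called members and of called list genes are also given without untreated libraries 3 and 4.

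The markers fit the tumor cell label in part. Epithelial keratins were high, with Krt8 averaging 1882, 2077 and 1761 in PD-L1 high, treated all and untreated all, and 11 of 13 epithelial markers averaged 1 or more, while Cldn4 was at or near 0. Vim, the mesenchymal intermediate filament, was also high, at 2525, 2690 and 3120 in the same order of groups. In all, 7 of 8 mesenchymal markers averaged 1 or more, among them Snai1 at 18.1, 53.6 and 11.9. Of 15 leukocyte markers 2 averaged 1 or more, Cd68 and Cd14. Defining ones lay near 0, with Ptprc (CD45) at 0.16 or less in every library and Adgre1, Cd3e, Cd3g and Nkg7 at 0 in all 10. Of 11 fibroblast or stellate markers 4 did (Pdgfra, Pdgfrb, Acta2 and Pdpn), and Dcn, Lum and Fap were near 0. The 8 endothelial markers all averaged below 1.

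To show regulatory sequence in front of a few members, the 250 bases before the RefSeq start (GRCm38.p6) are printed for 5 of them, 5′ to 3′ on the gene's own strand. They were picked after their values and matches were seen: Itgb7 for its large rise, the 3 tested genes of the chromosome 9 MMP cluster, and Col6a1 as a collagen with a match that fell. Capitals mark matches, on either strand, to an AP-1 site (TGANTCA), a gamma-activated site (GAS, TTCNNNGAA) or an interferon-stimulated response element (ISRE, GAAA, any 2 bases and GAAA again). They lie at chr15:102231936-102232185 (minus strand) for Itgb7, chr9:7272264-7272513 for Mmp13, chr9:7445572-7445821 for Mmp3 and chr9:7502092-7502341 for Mmp10 (all plus strand), and chr10:76726045-76726294 (minus strand) for Col6a1.
Itgb7: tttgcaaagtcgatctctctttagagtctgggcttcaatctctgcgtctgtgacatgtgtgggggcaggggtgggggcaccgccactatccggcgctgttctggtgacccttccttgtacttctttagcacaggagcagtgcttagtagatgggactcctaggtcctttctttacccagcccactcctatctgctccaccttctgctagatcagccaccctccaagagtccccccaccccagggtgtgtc
Mmp13: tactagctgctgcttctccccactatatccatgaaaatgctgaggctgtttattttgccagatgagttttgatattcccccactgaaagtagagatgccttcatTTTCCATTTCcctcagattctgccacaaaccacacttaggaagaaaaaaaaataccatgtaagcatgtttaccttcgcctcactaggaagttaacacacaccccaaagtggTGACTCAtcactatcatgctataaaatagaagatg
Mmp3: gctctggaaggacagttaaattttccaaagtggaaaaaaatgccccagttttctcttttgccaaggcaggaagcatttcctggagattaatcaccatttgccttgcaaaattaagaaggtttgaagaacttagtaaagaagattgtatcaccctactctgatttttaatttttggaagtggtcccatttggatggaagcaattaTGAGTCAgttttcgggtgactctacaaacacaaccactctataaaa
Mmp10: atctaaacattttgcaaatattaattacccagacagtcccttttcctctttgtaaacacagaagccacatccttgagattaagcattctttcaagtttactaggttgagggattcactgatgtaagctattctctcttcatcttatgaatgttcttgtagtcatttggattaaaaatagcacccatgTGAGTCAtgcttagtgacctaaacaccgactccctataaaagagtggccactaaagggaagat
Col6a1: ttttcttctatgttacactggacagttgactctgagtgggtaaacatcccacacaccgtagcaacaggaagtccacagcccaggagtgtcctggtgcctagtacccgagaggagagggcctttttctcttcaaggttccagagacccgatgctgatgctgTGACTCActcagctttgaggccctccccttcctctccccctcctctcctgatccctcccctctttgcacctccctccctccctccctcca
The 3 MMP windows each hold 1 AP-1 match close to the start, 35 to 29 bases before it in Mmp13, 46 to 40 in Mmp3 and 63 to 57 in Mmp10. Col6a1 holds its match 90 to 84 bases before the start. These 4 genes were the only matches to TGANTCA among 36 windows of 32 tested members (11.1%, against 6.75% of 32851 windows of all genes). Mmp13 also holds an ISRE match, which is on the opposite strand and does not overlap the AP-1 match. ISRE matches stood in 3 of the 36 windows (8.33%, against 2.98% of all windows) and GAS matches in 2 (5.56%, against 7.02%). The other ISRE matches were in Itga2b and Itga3 and the GAS matches in Itgb3bp and Lamb2, all genes that fell with IFNγ. The Itgb7 window holds none of the 3 motifs in these letters, nor do those of Col6a2 and Col7a1, which fell further than Col6a1 and are not printed. A match in a window is a description of the letters only.

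With IFNγ, most of the tested members had less RNA, and a few had more. Of the 43 members, 30 fell and 5 rose in treated all against untreated all, where 38.8% of all genes tested fell and 23.1% rose. The falls were led by the type VI collagen chains Col6a2 and Col6a1, Col7a1, Fn1 and Col1a1, and the rises by the integrin chain Itgb7 and the collagenase Mmp13. The members' median log2 fold change was −0.37, against −0.07 over all genes. Without untreated libraries 3 and 4, 27 fell and 3 rose, where 29.6% of all genes fell and 17.9% rose, and the calls of Itga5, Itgb3bp, Lamc1, Mmp10 and Mmp19 ended. Counting only changes of 1.5-fold or more in signal + 1, 5 fell (Col6a2, Col7a1, Col6a1, Fn1 and Col1a1) and 2 rose (Itgb7 and Mmp13), where 6.70% of all genes fell and 5.75% rose that far. Without untreated libraries 3 and 4, Col18a1 joined the falls of that size, which made 6, and the same 2 rose, where 6.38% of all genes fell and 5.62% rose. In plain means over all 10 libraries, other called members also passed 1.5-fold. Among them, Col18a1 was 1.505-fold and Col4a5 1.55-fold lower, and Col6a3 was 1.56-fold higher. Scaling the libraries by median ratios moved the median of all genes to −0.0002, against −0.07. It gave 28 members lower and 6 higher, where 3462 of all genes were lower and 3540 higher. The share of rises among all called genes moved to 50.6%, against 37.3% as deposited. In bulk RNA, fewer cells of a type and less RNA per cell cannot be told apart. Fibroblasts make much of the collagen of tumors, and the summed signal of the 11 fibroblast or stellate markers was 31.4 to 34.2 in PD-L1 high, 30.5 to 31.4 in treated all and 34.3 to 35.4 in untreated all. Of the 4 that were tested, Pdgfra fell and Acta2 and Pdpn rose with IFNγ. Their part in the falls was not tested.

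Within the treated cells, those with high PD-L1 had more RNA of 12 members and less of 3, where 11.5% of all genes rose and 14.1% fell between PD-L1 high and treated all. Mmp13, Fn1, Itgb5, Itga3, Col8a1, Lama5, Col3a1 and Mmp3 rose and Itga6 and Col6a1 fell under each of 20 other ways of fitting the data. The sizes were small, from −0.27 to −0.18 among the falls and from 0.16 to 0.47 among the rises. The members' median was 0.09, against −0.01 over all genes. Without untreated libraries 3 and 4, 8 rose and 2 fell, where 7.69% of all genes rose and 8.78% fell. The calls that ended without them were those of Col5a1, Col14a1, Itgav, Lamb1 and Lamb2. On the scale of signal + 1 no tested member differed by 1.5-fold or more, at any p, where 0.914% of all genes rose and 1.11% fell that far (0.827% and 1.04% without untreated libraries 3 and 4). In plain means Col7a1, which was not called, was 1.56-fold lower in PD-L1 high. Of the 43 members 22 had an unadjusted p under 0.05 by limma, as did 38.2% of all genes.

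PD-L1 high against untreated all, which shares its libraries with both comparisons above, had 30 members lower and 5 higher, where 41.0% of all genes were lower and 19.1% higher. Without untreated libraries 3 and 4 it had 24 lower and 4 higher, against 29.6% and 14.5% of all genes, and 7 calls ended, among them those of Itgb1, Itgb2, Itgb3bp, Lama5, Mmp11 and Mmp19. Counting changes of 1.5-fold or more in signal + 1, 6 were lower and 2 higher, against 4.77% and 5.01% of all genes, and the same numbers were so without untreated libraries 3 and 4, against 4.44% and 4.90%. Scaling by median ratios moved the median of all genes by 0.1 and gave 21 members lower and 8 higher, where 3150 of all genes were lower and 3219 higher. It moved the share of rises among called members to 27.6%, against 14.3% as deposited, and among all called genes to 50.5%, against 31.7%. The levels of PD-L1 high cells lay between those of treated all and untreated all for 9 members that fell with IFNγ and were higher in PD-L1 high than in treated all: Fn1, Col3a1, Col5a1, Lama5, Lamb1, Lamb2, Itga3, Itgav and Itgb5. Under median-ratio scaling the difference of Lama5 and Lamb2 from untreated all turned slightly positive, at 0.0095 and 0.018. Since the treated all libraries stand in both differences, this arrangement is given as values only.

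**Figure D1:**
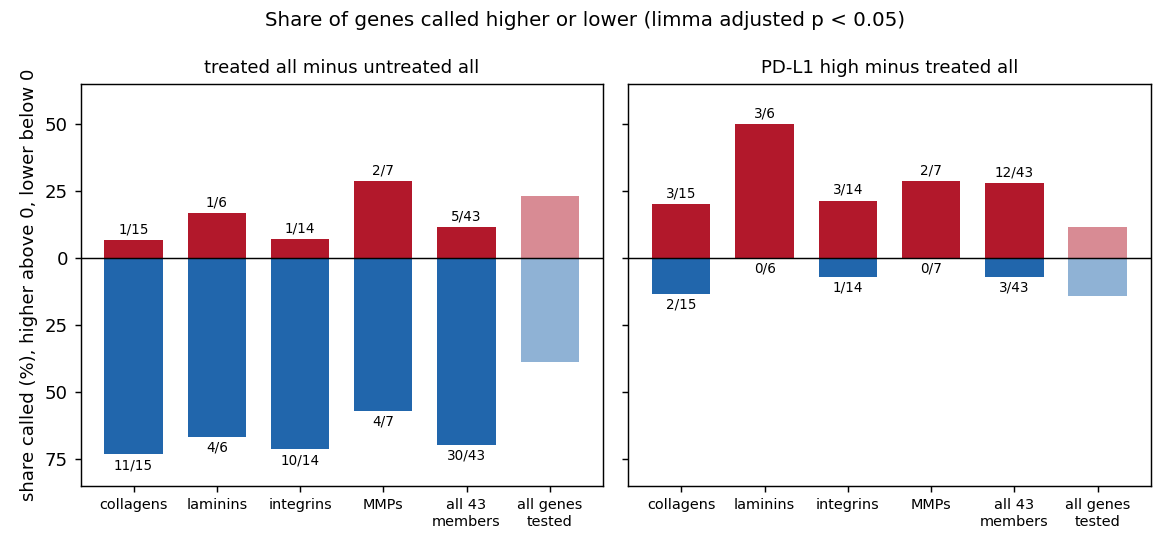
Share of genes that rose (red, above 0) or fell (blue, below 0) at a limma adjusted p under 0.05, by family, over all 43 tested members and over all 11487 genes (pale), for treated all minus untreated all (left) and PD-L1 high minus treated all (right). Among collagens 11 of 15 fell with IFNγ, also without untreated libraries 3 and 4, and among laminins 3 of 6 were higher in PD-L1 high, or 1 of 6 without those libraries.

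**Figure D2:**
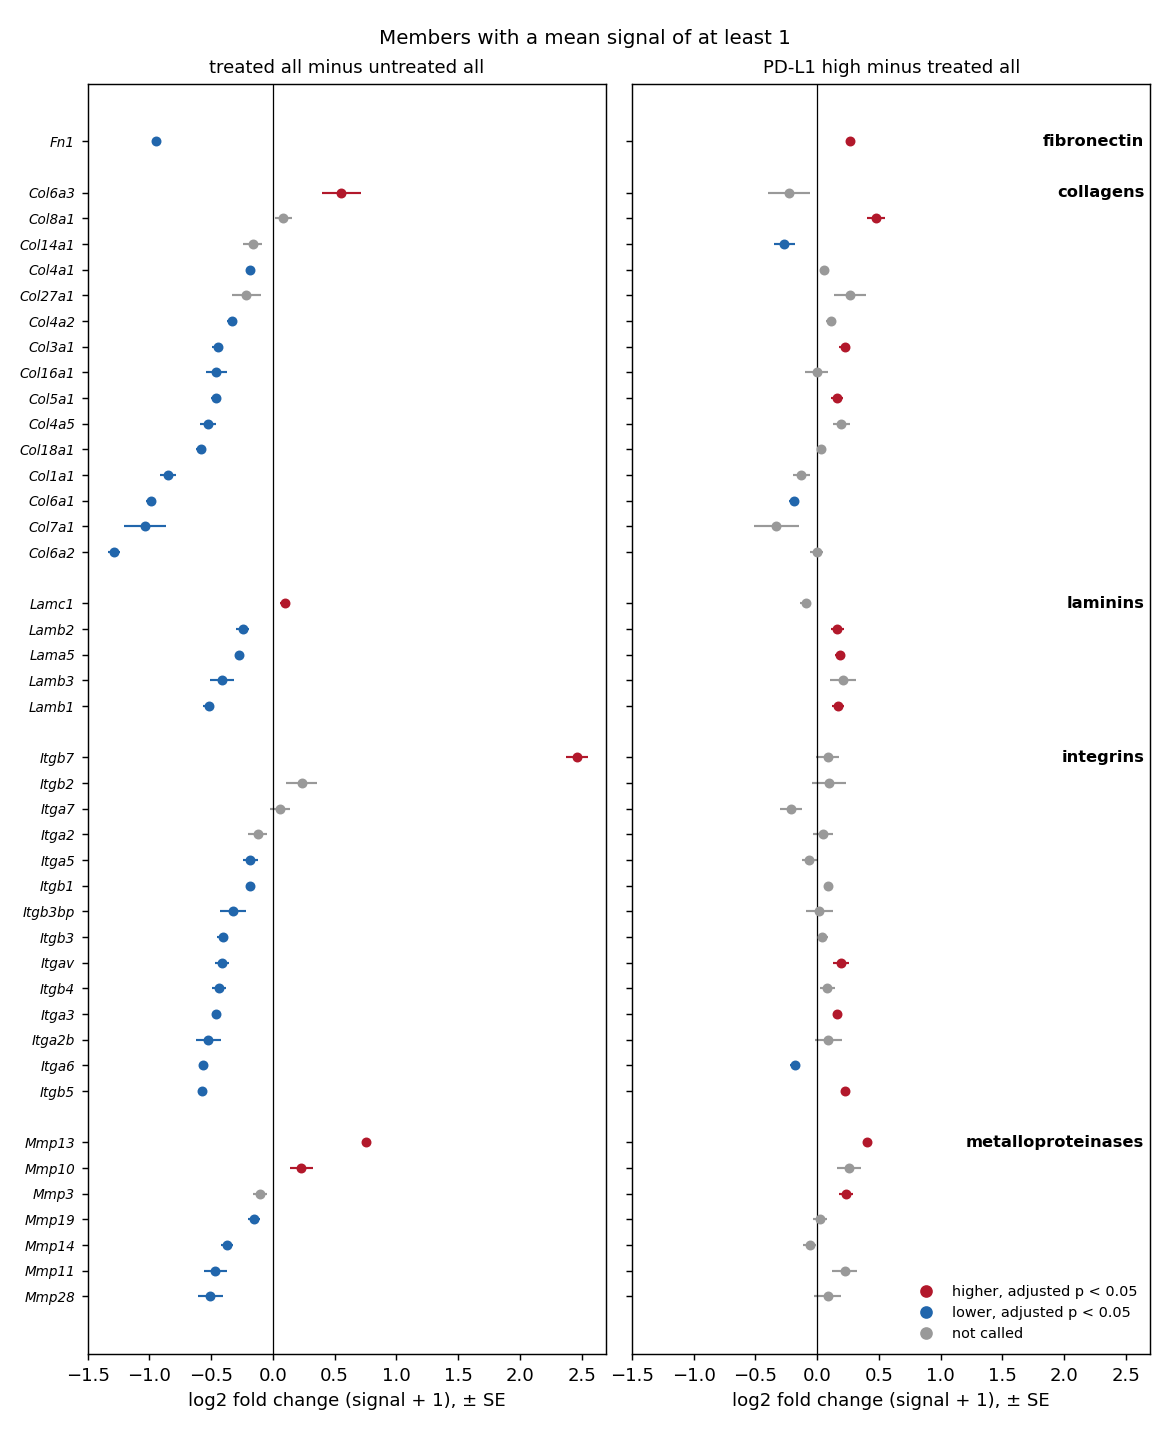
Log2 fold change of signal + 1 (x axis, points, with lines of ± 1 standard error) for the tested members, by family, in treated all minus untreated all (left) and PD-L1 high minus treated all (right). Red points rose, blue points fell and grey points did not pass an adjusted p of 0.05, and not every member is drawn. Itgb7 stands far to the right of the other members in the left panel, and no point of the right panel lies beyond 0.47.

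Fibronectin, the dimeric glycoprotein that integrins stretch into fibrils on the cell surface, was the member with the highest signal. Fn1 (chr1:71585473-71653280, GRCm38) had a signal of 769, 747 and 779 in PD-L1 high, 641, 617 and 653 in treated all and 1266, 1198, 1207 and 1249.5 in untreated all. The groups did not overlap, with untreated all highest, treated all lowest and PD-L1 high between them. Fn1 fell with IFNγ, with a log2 fold change of −0.95 ± 0.026 (limma adjusted p = 1.21e-10) and was higher in PD-L1 high than in treated all by 0.26 ± 0.028 (adjusted p = 6.49e-05). Fn1 made up 26.8% to 27.6% of the summed signal of all members in PD-L1 high, 25.03% to 25.8% in treated all and 34.4% to 35.3% in untreated all. The other 107 members together still had a summed signal of 2041 to 2064 in PD-L1 high, 1827 to 1921 in treated all and 2262 to 2332 in untreated all, so the order of the groups did not rest on Fn1.

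Among the fibril-forming collagens, types I, III and V fell together with IFNγ. Col3a1, the chain of type III collagen, was the collagen with the highest signal, at 129, 125 and 119 in PD-L1 high, 105, 104 and 112 in treated all and 153, 139.5, 140.5 and 151 in untreated all. It fell with IFNγ (log2 fold change −0.45 ± 0.042, adjusted p = 4.56e-06) and was higher in PD-L1 high than in treated all by 0.22 ± 0.045 (adjusted p = 0.00505), and no library of any group overlapped another group. Col5a1, a chain of type V collagen that nucleates type I fibrils, showed the same order at lower signal, with 36.4 ± 2.1 in PD-L1 high, 32.5 ± 0.99 in treated all and 45.1 ± 1.2 in untreated all. Against treated all, the difference of 0.16 ± 0.045 in PD-L1 high lost its call when PD-L1 high library 2 or treated all library 2 or 3 was left out, with adjusted p of 0.054 to 0.075.

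Type I collagen is a trimer of alpha1 and alpha2 chains in most tissues, and its alpha1 gene Col1a1 was low here, at 2.83, 3.304 and 2.995 in PD-L1 high, 3.702, 3.16 and 3.39 in treated all and 7.05, 6.898, 7.07 and 6.85 in untreated all. The untreated libraries were all above 6.8 and the treated ones all below 3.8, a log2 fold change of −0.85 ± 0.064 with IFNγ (adjusted p = 7.02e-07). The difference of PD-L1 high from treated all, −0.13 ± 0.069, was not called (95% interval −0.28 to 0.02). Col1a2, the alpha2 gene, reached at most 0.149 in any library, and Col5a2, the gene next to Col3a1 on chromosome 1, at most 0.11. Col27a1, another fibrillar collagen, averaged 1.58 ± 0.23 in PD-L1 high, 1.15 ± 0.25 in treated all and 1.499 ± 0.30 in untreated all and was called in neither comparison.

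Type VI collagen, which forms beaded filaments around cells and is usually a trimer of alpha1, alpha2 and alpha3 chains, split by chain. Col6a1 had a signal of 21.04, 19.3 and 21.4 in PD-L1 high, 23.2, 24.2 and 23.3 in treated all and 48.2, 47.3, 46.9 and 48.2 in untreated all. Col6a2 had 10.5, 9.98 and 9.32 in PD-L1 high, 9.49, 10.3 and 10.1 in treated all and 25.1, 26.5, 25.6 and 25.9 in untreated all. In both, every IFNγ-treated library, in PD-L1 high and in treated all, lay below every untreated library by a wide gap. The log2 fold change with IFNγ was −0.98 ± 0.040 for Col6a1 and −1.29 ± 0.050 for Col6a2 (adjusted p = 3.47e-09 and 2.35e-09), or 2.02-fold and 2.59-fold lower in means. Col6a1 was lower still in PD-L1 high, with a log2 fold change of −0.19 ± 0.042 against treated all (adjusted p = 0.00828), whereas the Col6a2 means were 9.94 ± 0.61 in PD-L1 high and 9.96 ± 0.42 in treated all. The genes lie 85161 bases apart on chromosome 10, at chr10:76708792-76726044 and chr10:76595756-76623630.

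Col6a3, the gene of the long alpha3 chain on chromosome 1, went the other way, at 3.87, 6.196 and 6.01 in PD-L1 high, 6.31, 6.09 and 6.62 in treated all and 5.12, 2.96, 4.32 and 3.83 in untreated all. The treated all libraries lay above all untreated ones, and the PD-L1 high libraries overlapped both groups, with library 1 at 3.87. The rise with IFNγ was 0.55 ± 0.16 (adjusted p = 0.0103, 0.0474 without untreated libraries 3 and 4). Against untreated all, Col6a3 in PD-L1 high did not pass the test (0.33 ± 0.16, adjusted p = 0.0969). The ratio of Col6a3 to Col6a1 signal was 0.18 to 0.32 in PD-L1 high, 0.25 to 0.28 in treated all and 0.063 to 0.11 in untreated all. The ratio was therefore higher in every IFNγ-treated library than in any untreated one. As Col6a1 fell, the ratio would be higher also without a rise of Col6a3.

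**Figure D3:**
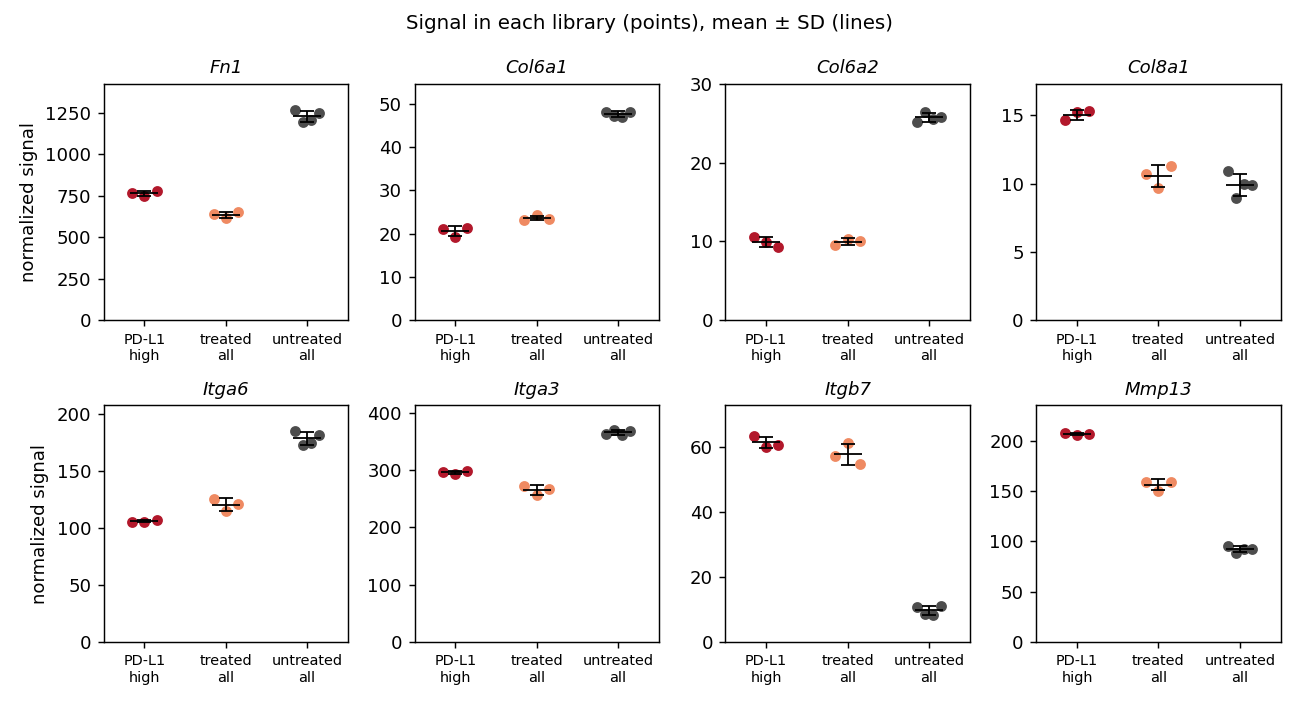
Normalized signal (y axis, each panel from 0 on its own scale) of 8 members in each library (points), with the mean and SD of each group (lines), for PD-L1 high, treated all and untreated all from left to right. Fn1, Col6a1, Col6a2, Itga6 and Itga3 were lower in both IFNγ-treated groups, Itgb7 and Mmp13 were higher, and Col8a1 was highest in PD-L1 high.

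Type IV collagen is the sheet-forming collagen of basement membranes, and its main chains are alpha1 and alpha2. Col4a1 averaged 85.8 ± 3.6 in PD-L1 high, 82.6 ± 0.62 in treated all and 93.99 ± 1.4 in untreated all, and Col4a2 averaged 42.96 ± 1.7 in PD-L1 high, 39.6 ± 1.8 in treated all and 50.02 ± 0.60 in untreated all. Both fell with IFNγ, with log2 fold changes of −0.18 ± 0.029 and −0.33 ± 0.038 (adjusted p = 0.000257 and 2.13e-05). These genes start head to head on chromosome 8 and their annotations overlap by 85 bases, and no source used here states whether counting used strand, so their reads may be shared. The ratio of Col4a1 to Col4a2 signal was 1.892 to 2.065 in PD-L1 high, 2.028 to 2.214 in treated all and 1.871 to 1.886 in untreated all. It was thus higher in every IFNγ-treated library than in any untreated one. Col4a5, a minor type IV chain on the X chromosome, averaged 4.75 ± 0.37 in PD-L1 high, 4.02 ± 0.11 in treated all and 6.21 ± 0.31 in untreated all and fell with IFNγ, with a log2 fold change of −0.52 ± 0.063 (adjusted p = 3.03e-05). Its neighbour Col4a6, which starts 1274 bases away in the opposite direction, was at 0.098 or less in every library.

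Col18a1, Col7a1 and Col16a1 also fell. Col18a1, whose C-terminal fragment is endostatin, had 85.3, 87.8 and 86.5 in PD-L1 high, 87.7, 79.6 and 86.7 in treated all and 130.3, 125, 124 and 130.2 in untreated all. Its untreated libraries were all above 124 and its treated ones all below 88, a log2 fold change of −0.58 ± 0.035 (adjusted p = 1.08e-07), with the 2 treated groups overlapping. Col7a1, which builds the anchoring fibrils below epithelial basement membranes, had 1.22, 1.196 and 0.996 in PD-L1 high, 1.06, 1.48 and 2.79 in treated all and 5.05, 3.99, 4.23 and 4.82 in untreated all. Treated all library 3 stood above the other 5 treated libraries but below every untreated one, and the log2 fold change was −1.03 ± 0.17 (adjusted p = 0.000318). At this low signal the added constant weighs on the fold: the treated all mean was 2.54-fold lower, and with 5 added in place of 1 the log2 fold change was −0.50. Col16a1, a fibril-associated collagen, fell as well (−0.46 ± 0.086, adjusted p = 0.000842).

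Col8a1, a short-chain collagen of vessel walls and the corneal basement membrane, had the largest log2 fold change of signal + 1 in PD-L1 high against treated all among the 43 tested members. It had 14.6, 15.2 and 15.3 in PD-L1 high, 10.7, 9.71 and 11.3 in treated all and 10.9, 8.93, 9.94 and 9.88 in untreated all. All PD-L1 high libraries lay above 14 and all others below 12. The difference was 0.47 ± 0.072 against treated all (adjusted p = 0.000855), 1.42-fold in means, and treated all did not differ detectably from untreated all (0.08 ± 0.068, 95% interval −0.06 to 0.23). Col14a1, a fibril-associated collagen, had the opposite order, with 2.304 ± 0.28 in PD-L1 high, 2.96 ± 0.20 in treated all and 3.44 ± 0.20 in untreated all. Its difference of −0.27 ± 0.083 against treated all (adjusted p = 0.0374) ended when any of 6 libraries was left out (PD-L1 high 2 or 3, treated all 2 or 3, untreated all 3 or 4), with adjusted p of 0.062 to 0.115.

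Of 23 tested genes of collagen and elastin processing, 14 fell and 4 rose with IFNγ, where 38.8% of all genes fell and 23.1% rose, and their median was −0.17, against −0.07 over all genes. Without untreated libraries 3 and 4, 9 fell and 3 rose, where 29.6% of all genes fell and 17.9% rose. The smallest adjusted p among them was that of Serpinh1, the collagen chaperone HSP47, at 157 ± 0.20 in treated all and 225 ± 1.3 in untreated all (−0.51, adjusted p = 5.04e-10). Colgalt1, which adds galactose to collagen hydroxylysine, and P3h4, a partner of collagen lysyl hydroxylase, fell with log2 fold changes of −0.52 and −0.50. P4hb, the beta subunit of prolyl 4-hydroxylase and a general disulfide isomerase, rose by 0.27. In PD-L1 high 5 of the 23 were above treated all (3 without untreated libraries 3 and 4), where 11.5% of all genes were (7.69% without), among them the cross-linking oxidase gene Loxl3 (30.4 ± 0.41 in PD-L1 high and 23.7 ± 0.52 in treated all) and the lysyl hydroxylase gene Plod3 (60.6 ± 2.3 and 49.6 ± 0.88).

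Laminins are trimers of 1 alpha, 1 beta and 1 gamma chain. The chains with high signal were Lama5, Lamb1 and Lamc1, with Lamb2 lower, and the other alpha genes Lama1, Lama2, Lama3 and Lama4 all had a mean below 1. Lama5 had 165, 165 and 150.4 in PD-L1 high, 143, 139 and 140.1 in treated all and 166, 175, 169 and 172 in untreated all. Treated all was lowest, and PD-L1 high overlapped neither treated all nor untreated all. Lama5 fell with IFNγ (−0.28 ± 0.034, adjusted p = 3.7e-05) and was higher in PD-L1 high than in treated all (0.18 ± 0.036, adjusted p = 0.00442).

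Lamb1 had 71.4, 74.05 and 81.3 in PD-L1 high, 68.9, 64.1 and 68.3 in treated all and 99.8, 93.5, 94.6 and 98.3 in untreated all, a log2 fold change with IFNγ of −0.52 ± 0.046 (adjusted p = 2.53e-06) with no overlap. PD-L1 high stood above treated all by 0.17 ± 0.049, and this call (adjusted p = 0.0281) was lost without PD-L1 high library 3 or treated all library 2, with adjusted p of 0.083 and 0.090. Lamb2 fell with IFNγ (−0.24 ± 0.051), and its rise of 0.16 ± 0.054 in PD-L1 high (adjusted p = 0.0483) was lost in 9 of the 10 fits that left out 1 library, the exception being treated all library 1, with adjusted p of 0.059 to 0.139. Without treated all library 3 that rise was 0.10. Lamb3, a chain of the laminin of hemidesmosomes, was close to the signal limit of 1 and fell, with a log2 fold change of −0.41 ± 0.099 that was −0.69 with 0.1 added in place of 1 and −0.15 with 5 added.

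Lamc1, the gamma chain shared by most laminins, averaged 72.8 ± 2.5 in PD-L1 high, 77.8 ± 1.9 in treated all and 72.7 ± 3.2 in untreated all. In treated all it was higher by 0.10 ± 0.038 with overlapping groups (adjusted p = 0.047), and the call ended without any of 6 libraries (PD-L1 high 3, treated all 1 or 3, untreated all 2, 3 or 4), with adjusted p of 0.051 to 0.139. The summed laminin signal was 335 to 344 in PD-L1 high, 308 to 323 in treated all and 368 to 380.04 in untreated all.

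Of 20 tested genes of other matrix and basement membrane proteins, 18 fell and 1 rose with IFNγ (17 and 1 without untreated libraries 3 and 4), with a median of −0.38, where 38.8% of all genes fell and 23.1% rose (29.6% and 17.9% without). Ccn1, a matrix-bound integrin ligand, had 199.7 ± 1.3 in treated all and 414 ± 3.6 in untreated all (−1.05, adjusted p = 6.04e-13). Fbln2, a fibulin that binds fibronectin and laminin, had a log2 fold change of −1.73, Spp1, the integrin ligand osteopontin, of −0.70, and Ccn2, a relative of Ccn1, of −1.51. In PD-L1 high 9 of the 20 were above treated all and 2 below (9 and 1 without untreated libraries 3 and 4), where 11.5% of all genes were above and 14.1% below. Among those above were Ccn1, at 347 ± 3.5 in PD-L1 high and 199.7 ± 1.3 in treated all (0.79, adjusted p = 8.12e-10) and the basement membrane proteoglycan gene Hspg2 (perlecan) at 41.9 ± 2.4 and 31.7 ± 0.80.

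Integrin genes divided into a few chains with high signal and many that were hardly detected. Of 18 alpha chain genes 7 averaged 1 or more, and of 8 beta chain genes 6 did. Itga3 and Itga6, the laminin-binding alpha chains of epithelia, held most of the alpha signal. Itga3 had 296, 293 and 298 in PD-L1 high, 273, 257 and 266 in treated all and 363, 369.7, 362 and 369 in untreated all, and Itga6 had 105, 105 and 107 in PD-L1 high, 126, 115 and 121 in treated all and 185, 172, 175 and 181 in untreated all. Both were highest in untreated all, and the treated groups were arranged in opposite order, with PD-L1 high above treated all for Itga3 and below it for Itga6, without overlap in either case.

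With IFNγ, both fell, with log2 fold changes of −0.46 ± 0.022 for Itga3 and −0.56 ± 0.033 for Itga6 (adjusted p = 1.46e-08 and 9.25e-08). Relative to treated all, Itga3 was higher in PD-L1 high (0.16 ± 0.024, adjusted p = 0.000784) and Itga6 was lower (−0.18 ± 0.036, adjusted p = 0.0038). The ratio of Itga3 to Itga6 signal was 2.78 to 2.82 in PD-L1 high, 2.17 to 2.24 in treated all and 1.97 to 2.14 in untreated all. The PD-L1 high libraries were thus set apart from all 7 others by this ratio.

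Of the remaining alpha chains, Itgav, the RGD-binding chain of vitronectin and fibronectin receptors, averaged 49.9 ± 2.7 in PD-L1 high, 43.6 ± 3.5 in treated all and 58.2 ± 2.7 in untreated all and fell with IFNγ, with a log2 fold change of −0.41 ± 0.057 (adjusted p = 9.12e-05). Its rise in PD-L1 high (0.19 ± 0.061, adjusted p = 0.0403) came with overlapping groups and ended when any of 6 libraries was left out (PD-L1 high 1 or 2, treated all 2 or 3, untreated all 3 or 4), with adjusted p of 0.057 to 0.13. Itga5, the fibronectin receptor chain, averaged 11.3 ± 0.27 in PD-L1 high, 11.9 ± 1.2 in treated all and 13.6 ± 0.31 in untreated all, and its fall with IFNγ (−0.18 ± 0.060, adjusted p = 0.0205) ended without treated all library 3 or untreated all library 3, with adjusted p of 0.0508 to 0.0807. Its log2 fold change was −0.11 without treated all library 3, and the call also ended under both scalings. Itga2b, the platelet fibrinogen receptor chain, was low, at 3.28 ± 0.45 in PD-L1 high, 3.02 ± 0.44 in treated all and 4.77 ± 0.48 in untreated all, and fell (−0.52 ± 0.10, adjusted p = 0.000943, or −0.29 with 5 added). Itga2, a collagen receptor chain, and Itga7, a laminin receptor chain of muscle, did not pass the test, and the other collagen-binding alpha genes Itga1, Itga10 and Itga11 lay below the limit.

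Beta chains were led by Itgb1, the common partner of most alpha chains, and Itgb5, a partner of alpha V. Itgb1 had 205, 204 and 206 in PD-L1 high, 199, 185 and 194 in treated all and 231, 209, 217 and 223 in untreated all. It fell with IFNγ (−0.19 ± 0.034, adjusted p = 0.000583, or −0.11 with median-ratio scaling), and the treated groups did not overlap untreated all. Itgb5 had 155, 151 and 155 in PD-L1 high, 132, 132 and 128 in treated all and 192, 199, 195 and 195 in untreated all, with no overlap between any of the groups. It fell with IFNγ (−0.57 ± 0.022, adjusted p = 2.33e-09) and was higher in PD-L1 high than in treated all (0.23 ± 0.023, adjusted p = 5.27e-05). Itgb3, another partner of alpha V, averaged 16.6 ± 0.083 in PD-L1 high, 16.1 ± 0.66 in treated all and 21.6 ± 0.82 in untreated all. Itgb4, the hemidesmosome partner of alpha 6, averaged 11.7 ± 0.28 in PD-L1 high, 11.05 ± 0.74 in treated all and 15.3 ± 0.85 in untreated all. Both Itgb3 and Itgb4 fell with IFNγ, with log2 fold changes of −0.41 ± 0.044 and −0.44 ± 0.057.

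Itgb7 was the exception. This beta chain, known from gut-homing and intraepithelial lymphocytes, pairs with the alpha 4 and alpha E chains. It had 63.4, 60.02 and 60.7 in PD-L1 high, 57.2, 61.3 and 54.9 in treated all and 10.7, 8.63, 8.39 and 11.1 in untreated all. Every IFNγ-treated library was above 54 and every untreated one below 12. The rise was 2.46 ± 0.087 in treated all against untreated all (adjusted p = 1.08e-09, 1.47e-08 without untreated libraries 3 and 4), 5.95-fold in means. PD-L1 high and treated all overlapped, with a difference of 0.09 ± 0.093 (95% interval −0.12 to 0.29). Itgb7 made up 13.4% to 14.0% of the summed beta chain signal in PD-L1 high, 13.5% to 15.1% in treated all and 1.83% to 2.37% in untreated all. At its annotated place, chr15:102215994-102233405, the 250 bases printed above precede a start inside this span.

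The known alpha partners of Itgb7 were close to 0 in the same libraries, Itga4 at 0.029 or less and Itgae at 0.15 or less. Of the lymphocyte markers, Cd3e, Cd3g and Nkg7 were at 0 in all 10 libraries. Cd52, also on the leukocyte list, was not as low. It averaged 0.124 in PD-L1 high, 2.55 in treated all (0.384 to 5.24) and 0.351 in untreated all. The summed signal of the 15 leukocyte markers was 103 to 105 in PD-L1 high, 96.2 to 101 in treated all and 68.2 to 70.6 in untreated all, nearly all of it from Cd14 and Cd68, which both rose with IFNγ. Their part in the Itgb7 difference was not tested. Itgb2, the beta chain of leukocyte integrins, averaged 1.75 ± 0.45 in PD-L1 high, 1.57 ± 0.28 in treated all and 1.18 ± 0.23 in untreated all with overlapping groups, and its alpha partners Itgal, Itgam, Itgax and Itgad were at 0.02 or less in every library.

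**Figure D4:**
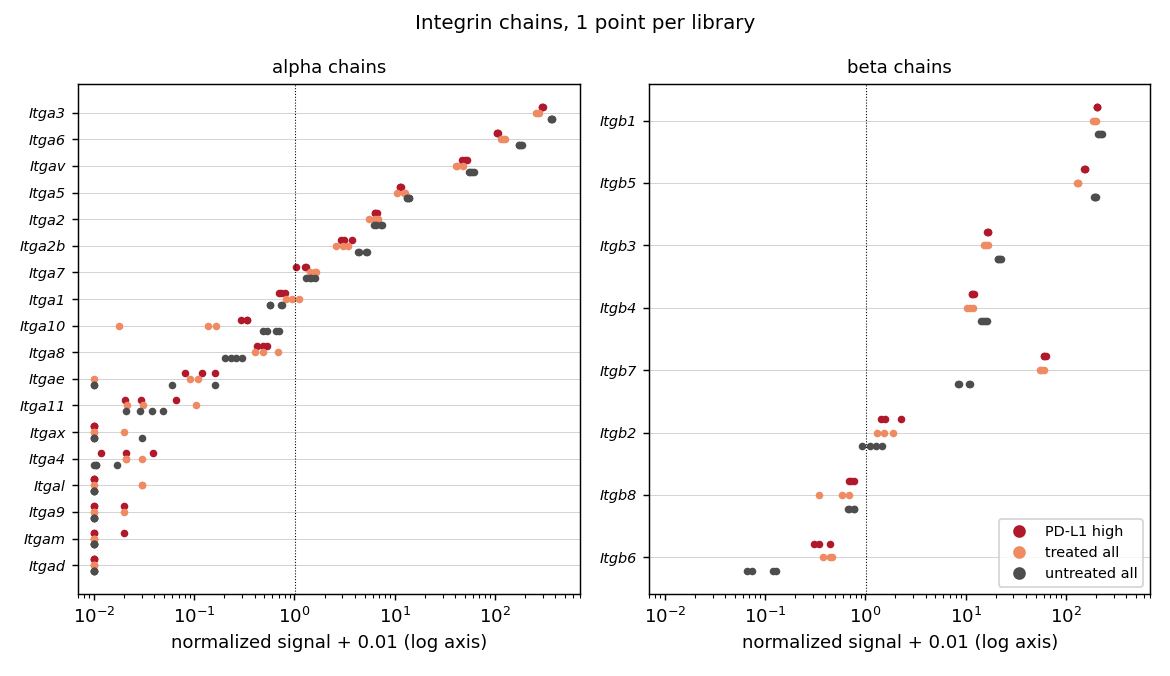
Normalized signal + 0.01 (log axis) of the alpha chain genes (left) and beta chain genes (right) under the symbol rule, 1 point per library, with PD-L1 high above treated all above untreated all within each row and a dotted line at 1. Itgb7 is the only chain above the line whose untreated points (8.39 to 11.1) lie far to the left of its treated ones (54.9 to 63.4), and its partners Itga4 and Itgae sit at the left edge.

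Genes downstream of integrins changed in both directions. Of 30 tested adhesion adaptors and kinases, 16 fell and 8 rose with IFNγ (14 and 6 without untreated libraries 3 and 4), where 38.8% of all genes fell and 23.1% rose (29.6% and 17.9% without). Their median of −0.10 lay near that of all genes, −0.07. Tns4, a tensin that binds beta chain tails, had a log2 fold change of −0.54, and Parva, a parvin of the complex with integrin-linked kinase, of −0.35. Fermt1, the epithelial kindlin that activates integrins, fell as well, at −1.02 (3.64 ± 0.44 in treated all and 8.39 ± 0.75 in untreated all, adjusted p = 2.44e-06). Between the treated groups, 6 were higher in PD-L1 high and 4 lower (4 and 3 without untreated libraries 3 and 4), where 11.5% of all genes were higher and 14.1% lower. The focal adhesion scaffolds Pxn, Bcar1 and Nedd9 were lower, with log2 fold changes of −0.24, −0.30 and −0.31, and the actin crosslinker Flna was higher by 0.16.

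Of 18 other matrix receptors and integrin partners 10 fell and 8 rose with IFNγ (10 and 6 without untreated libraries 3 and 4), where 38.8% of all genes fell and 23.1% rose. Sdc4, a syndecan that acts with integrins at focal adhesions, had 312 ± 2.9 in treated all and 182 ± 4.8 in untreated all (0.78, adjusted p = 2.07e-10), and the tetraspanins Cd9 and Cd63 rose by 0.55 and 0.28. Hmmr, a hyaluronan receptor also known from the mitotic spindle, fell, with a log2 fold change of −1.14. PD-L1 high had 6 of them higher and 5 lower than treated all (4 and 4 without untreated libraries 3 and 4), where 11.5% of all genes were higher and 14.1% lower, with log2 fold changes of −0.29 for Sdc4, −0.36 for the hyaluronan receptor Cd44 and 0.58 for Hmmr.

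Among the MMPs, the collagenase gene Mmp13 had the highest signal. Mmp13, the main interstitial collagenase of rodents, had 208, 206 and 207 in PD-L1 high, 159, 150.1 and 159 in treated all and 95.6, 88.9, 92.2 and 92.01 in untreated all. No library overlapped another group, and PD-L1 high was highest and untreated all lowest. Mmp13 rose with IFNγ by 0.76 ± 0.030 (adjusted p = 2.73e-09) and was higher again in PD-L1 high than in treated all by 0.40 ± 0.032 (adjusted p = 7.43e-06), 2 comparisons that share the treated all libraries. The PD-L1 high mean was 2.25-fold that of untreated all. Mmp13 made up 64.3% to 65.6% of the summed MMP signal in PD-L1 high, 58.5% to 60.7% in treated all and 38.5% to 42.1% in untreated all.

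Mmp3 and Mmp10, the stromelysins, which cut proteoglycans and laminin and can activate other MMPs, lie beside Mmp13 on chromosome 9. Mmp3 had 16.1, 17.04 and 17.01 in PD-L1 high, 14.6, 13.5 and 14.1 in treated all and 16.3, 14.3, 14.6 and 15.9 in untreated all. It was higher in PD-L1 high than in treated all by 0.23 ± 0.059 (adjusted p = 0.0146) without overlap, while treated all and untreated all overlapped (−0.11 ± 0.055, 95% interval −0.23 to 0.01). Mmp10 had 2.303, 2.57 and 2.35 in PD-L1 high, 1.83, 1.56 and 2.16 in treated all and 1.62, 1.22, 1.46 and 1.399 in untreated all. Its rise with IFNγ (0.23 ± 0.091, adjusted p = 0.0463) was lost when any of 8 libraries was left out (PD-L1 high 1, 2 or 3, treated all 1 or 3, untreated all 2, 3 or 4), with adjusted p of 0.052 to 0.185, and with 5 added in place of 1 (0.09). Its difference between PD-L1 high and untreated all was 0.49 ± 0.091 (adjusted p = 0.000822). The cluster at chr9:7272514-7699585 (GRCm38) holds 10 MMP genes, and the 7 others averaged below 1, with at most 0.471 in any library.

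The other tested MMPs fell with IFNγ. Mmp14, the membrane-anchored collagenase that activates pro-MMP-2, had 62.2, 59.01 and 58.1 in PD-L1 high, 63.4, 63.7 and 60.1 in treated all and 74.9, 87.7, 80.2 and 82.2 in untreated all. All treated libraries lay below 64 and all untreated ones above 74, a log2 fold change of −0.37 ± 0.049 (adjusted p = 5.62e-05). Mmp2 itself was at 0.07 or less in every library. Mmp11, stromelysin-3, averaged 19.4 ± 2.2 in PD-L1 high, 16.5 ± 2.7 in treated all and 23.1 ± 0.15 in untreated all, and Mmp28, epilysin, averaged 3.98 ± 0.80 in PD-L1 high, 3.66 ± 0.45 in treated all and 5.61 ± 0.22 in untreated all, with log2 fold changes of −0.47 ± 0.092 and −0.51 ± 0.10 (adjusted p = 0.00112 and 0.00133). Mmp19, which cuts basement membrane proteins, averaged 7.72 ± 0.26 in PD-L1 high, 7.59 ± 0.20 in treated all and 8.56 ± 0.38 in untreated all, and its fall (−0.15 ± 0.052, adjusted p = 0.0229) ended under both scalings, and without treated all library 2 or 3 or untreated all library 4, with adjusted p of 0.053 to 0.076.

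**Figure D5:**
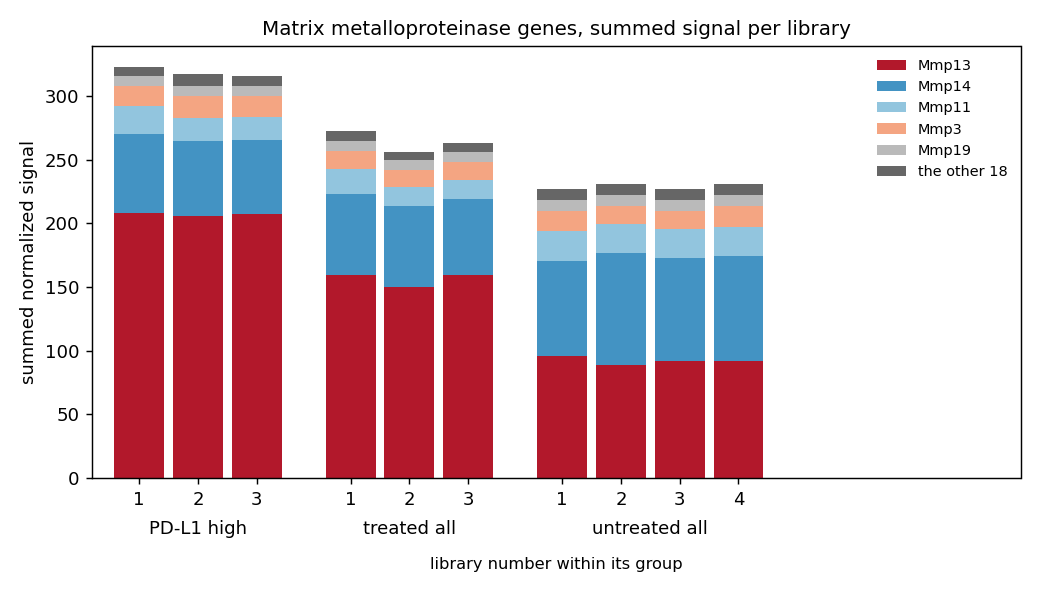
Summed normalized signal of the 23 MMP genes in each library (bars from 0), stacked by gene, with the libraries of PD-L1 high, treated all and untreated all from left to right. The Mmp13 part (red) is 206 to 208 in PD-L1 high, 150.1 to 159 in treated all and 88.9 to 95.6 in untreated all, and the Mmp14 part is largest in untreated all.

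Of 22 tested inhibitors and other matrix proteases, 12 fell and 5 rose with IFNγ (8 and 4 without untreated libraries 3 and 4), where 38.8% of all genes fell and 23.1% rose (29.6% and 17.9% without). PD-L1 high had 9 higher and 5 lower than treated all (9 and 4 without those libraries), where 11.5% of all genes were higher and 14.1% lower. Timp2, an MMP inhibitor that also takes part in MMP-2 activation, had 247 ± 6.0 in treated all and 346 ± 5.8 in untreated all (−0.48, adjusted p = 8.35e-09), and in PD-L1 high it was higher than in treated all by 0.21. Timp3, the matrix-bound inhibitor, and Timp1 were higher in PD-L1 high than in treated all by 0.46 and 0.30 (adjusted p = 1.59e-05 and 0.000148). Htra1, a secreted serine protease, fell with IFNγ (−0.84), and Plau, the urokinase that activates plasminogen, and Adamts1, an aggrecanase, rose by 0.65 and 0.66. Adamts1 was lower in PD-L1 high than in treated all (−0.37).

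TGF-beta signalling, known for inducing collagen and fibronectin genes, had 12 of 21 tested genes lower and 5 higher with IFNγ (12 and 4 without untreated libraries 3 and 4), with a median of −0.18, where 38.8% of all genes fell and 23.1% rose. Ltbp3 and Ltbp1, which tether latent TGF-beta to the matrix, had log2 fold changes of −0.63 and −0.43, the ligand gene Tgfb3 had −0.67, and Id3, a target gene of the related BMP pathway, rose by 0.43. Of the same 21, PD-L1 high had 8 lower and 3 higher than treated all (5 and 2 without untreated libraries 3 and 4), where 14.1% of all genes were lower and 11.5% higher. The feedback inhibitor Smad7 had 27.04 ± 2.1 in PD-L1 high and 42.1 ± 1.3 in treated all (−0.62, adjusted p = 1.11e-05), and Skil, Id3 and Id2 were lower too, with log2 fold changes of −0.46, −0.26 and −0.30.

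The summed signals of the families ran in 2 orders. Collagens summed to 454 to 458 in PD-L1 high, 414 to 434 in treated all and 578 to 606 in untreated all, and integrin symbols to 929 to 939 in PD-L1 high, 849 to 901 in treated all and 1089 to 1116 in untreated all. For both, as for laminins, untreated all was highest and treated all lowest in every library. MMPs summed to 316 to 323 in PD-L1 high, 256 to 273 in treated all and 227 to 231 in untreated all, so that PD-L1 high was highest and untreated all lowest.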

How the data were processed

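Per the labels, libraries were made with an Illumina TruSeq kit from total RNA of sorted tumor cells, and the submitters' processing notes name CASAVA 1.7 and mm10. The deposited table gives the authors' normalized signal, without a stated unit, in 10 library columns, and its 3 columns of group averages were left out. Its aligner, counter and annotation are named in none of these sources. No count test could be run, and precision rests on the spread between libraries.

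Of 25507 rows 695 had no value. Rows sharing a symbol were added up (54 symbols), which left 24753 genes. Genes with a mean of at least 1 were kept and log2(signal + 1) was fitted with limma 3.58.1 in R 4.3.3 (intensity trend, robust variances, 1 mean per group, all 10 libraries), with Benjamini-Hochberg adjustment over 11487 genes. The fit was tested on simulated data. The added 1 understates folds of low genes. The members, pathway lists and markers were chosen with earlier results of these data known. The members with a mean of at least 1 could be named, though some genes are not reported here, and of each pathway list up to 4 called genes with the smallest adjusted p. Alternatives were pseudocounts, filters, scalings, thresholds, fits without libraries, and a replicate block. Coordinates and the 250-base windows are from RefSeq GRCm38.p6, the assembly of mm10. Windows were found for 32 of the 43 genes. The plots were made in Python 3.11.15 with matplotlib 3.10.9.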

Additional observations from a re-analysis of the deposited data

How the results depend on the processing

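Of 2679 recomputed log2 fold changes of single members, called or not, 2455 kept direction and side of the threshold and 24 gained a call. Another 174 lost a call with the direction kept, 19 of them at an adjusted p under 0.01. The other 26 changed sign, and 2 of these also lost a call. At least 1 of 20 other fits ended 5 of 35 calls in treated all against untreated all. It ended 5 of 15 in PD-L1 high against treated all and 10 of 35 in PD-L1 high against untreated all. Requiring a 1.5-fold change in signal + 1 left 7 called members in treated all against untreated all, where 6.70% of all genes fell and 5.75% rose that far. It left 8 in PD-L1 high against untreated all, where 4.77% of all genes were lower and 5.01% higher. For PD-L1 high against treated all it left 0 by limma, whatever the p, as the largest log2 fold change of signal + 1 among tested members was 0.47 (22 members had an unadjusted p under 0.05, as did 38.2% of all genes), and an adjusted p under 0.01 left 9. Leaving out 1 library at a time gave 31 to 35 called members in treated all against untreated all, 10 to 17 in PD-L1 high against treated all and 28 to 35 in PD-L1 high against untreated all. The fewest in the comparison of the treated groups came without treated all library 2. There, without untreated libraries 3 and 4, the 15 calls became 10, where 7.69% of all genes were higher and 8.78% lower. For the counts at an adjusted p under 0.01 and without 1 library, the share of all genes is not given here.

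Same-numbered libraries correlated by −0.181 to 0.104 in their deviations from group means, with 1 of 9 pairs above 0.1. Between PD-L1 high and treated all they correlated by 0.023, 0.104 and 0.047, and libraries of different number by −0.072 to 0.022. With so few libraries per group this cannot settle whether the numbers pair the libraries. A replicate block gave 33, 12 and 31 called members in the order treated all against untreated all, PD-L1 high against treated all and PD-L1 high against untreated all. Of all 11487 genes, 2487 were higher and 4031 lower in the first of these comparisons. In the second 1089 were higher and 1343 lower, and in the third 2024 and 4171.

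Scaling by median ratios moved the split of all called genes in treated all against untreated all to 50.6% higher, against 37.3% as deposited. In the same setting the log2 fold changes of PD-L1 high over untreated all turned sign for Itgb1 (0.0032), Lama5 (0.0095), Itga2 (0.013) and Lamb2 (0.018), and the calls of Itgb1 and Lama5 were lost. In PD-L1 high against treated all, Col6a2 became 0.0165 and Col16a1 0.0137 by median ratios, and 0.0163 and 0.0135 by upper quartiles. Col27a1 became −0.0096 in PD-L1 high against untreated all with the replicate block. Leaving out 1 library turned the sign of uncalled differences between PD-L1 high and treated all, of Col18a1 (range −0.011 to 0.058), Col6a2 (−0.042 to 0.039), Col16a1 (−0.126 to 0.072), Itgb3bp (−0.086 to 0.106), Itga2 (−0.028 to 0.104), Itgb2 (−0.038 to 0.180) and Mmp28 (−0.036 to 0.191). Between PD-L1 high and untreated all it did so for Col27a1 (−0.0098 to 0.117) and Lamc1 (−0.024 to 0.025). The causes were not tested. An added 5 in place of 1 shrank the called folds of low genes by over 1.5 times in treated all against untreated all, to 0.33 for Col6a3, −0.31 for Col4a5, −0.51 for Col1a1 and −0.29 for Mmp28. Median-ratio scaling did so for Col4a1 (−0.10), and moved Lamc1 to 0.18. Depth is unknown, so the counting error of low values cannot be given.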

Other observations

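Members below the limit of 1 were fitted only in the alternative with no filter on low values, and their fold changes are understated by the added 1. Of the 65 members below it, 56 could be fitted, and 9 rose and 6 fell with IFNγ by limma at an adjusted p under 0.05, where 4.99% of the 6296 genes below the limit rose and 7.64% fell. Without untreated libraries 3 and 4, 6 rose and 5 fell, where 2.02% and 4.07% of those genes did. Col12a1, a fibril-associated collagen, had a signal of 0.687, 0.724 and 0.760 in PD-L1 high, 0.325, 0.106 and 0.270 in treated all and 1.52, 1.39, 1.33 and 1.58 in untreated all. All untreated libraries lay above all treated ones, and PD-L1 high lay above treated all. Its log2 fold change was −0.996 in treated all relative to untreated all and 0.49 in PD-L1 high relative to treated all. Col5a3, a type V collagen chain, was at 0.109 to 0.245 in PD-L1 high, 0.0779 to 0.141 in treated all and 0.577 to 0.840 in untreated all.

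In the other direction, Itgb6, the epithelial partner of alpha V that activates latent TGF-beta, was at 0.297 to 0.433 in PD-L1 high, 0.367 to 0.457 in treated all and 0.0565 to 0.120 in untreated all. Lama3, the alpha chain of the hemidesmosome laminin, was at 0.301 to 0.429, 0.288 to 0.343 and 0.0334 to 0.125 in the same order of groups, and Col28a1 at 0.677 to 0.922, 0.397 to 0.597 and 0.0169 to 0.189. Col11a1, a fibrillar collagen of cartilage, was higher in PD-L1 high than in treated all (0.35), being at 0.636 to 0.890 in PD-L1 high and 0.347 to 0.365 in treated all. The 9 members listed at 0 in all 10 libraries were Col13a1, Col19a1, Col6a4, Itgad, Itgb2l, Itgbl1, Mmp16, Mmp1a and Mmp20.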
